A study of Mus musculus with 16 samples.

Results

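Imprinted genes are expressed mainly from the copy inherited from a single parent. The 10 described here are H19, Meg3, Rian, Mirg, Dlk1, Peg3, Mest, Peg10, Plagl1 and Grb10. They were chosen by gene name from a table of 35275 genes, and each name matched 1 row. H19, Meg3, Rian and Mirg are noncoding RNAs. The other members encode proteins linked to growth or cell fate. Of the 10, 3 (H19, Peg3 and Peg10) had a mean of at least 0.5 FPKM over all libraries and entered the test across genes, and 7 did not. FPKM is the number of sequenced fragments scaled to the length of the gene and the depth of the library.

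The RNA came from the established mouse cell line C2C12, whose myoblasts form multinucleated myotubes once serum is lowered. All groups were described as PAX7-negative cells. The wild-type controls were 2 populations, and the triple knockouts (tKO) were 2 clones in which the 3 genes of the miR-206 family, miR-1a-1 and miR-1a-2 included, were knocked out. Each line was grown in 20% fetal bovine serum to near confluence (GM) or kept for 3 days in 2% horse serum (DM3), with 2 cultures per line and stage. This gave 4 libraries in each of 4 groups. Genotype is represented by 2 clones only, and a p-value measures the spread between these libraries. The sample titles number the clones without saying whether they share an edited parent. All knockout lines are clones and all controls are populations, so effects of cloning and of knockout cannot be told apart. The labels do not say how separate the cultures were. The study's title asks what this microRNA family does in muscle and mitochondrial function and in myogenesis.

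Library depth was 22642563 to 56585952 fragments. Of 13 skeletal muscle markers, 3 to 4 reached 0.5 FPKM in each GM library and 11 to 13 in each DM3 library. Myod1 and Myog, factors that drive the muscle programme, were below 0.5 FPKM in every GM library. The summed muscle markers were 44.9 to 111 FPKM in GM and 473 to 1422 FPKM in DM3. In tKO DM3 the sum was 1422 and 1167 FPKM in culture 1 of clones 1 and 2, and 575 and 473 FPKM in culture 2. The endothelial markers Pecam1, Cdh5 and Kdr summed to at most 0.435 FPKM. Of 4 adipocyte markers, 1 to 2 reached 0.5 FPKM in each library, with sums of 2.90 to 15.2 FPKM. Adipoq and Plin1 stayed below 0.5 FPKM throughout, so the sums came from Fabp4 and Pparg. Of 4 osteoblast markers only Runx2 reached 0.5 FPKM, with sums of 4.71 to 9.32 FPKM, and of 4 leukocyte markers only Cd68 did, with sums of 0.691 to 4.06 FPKM. Mature microRNAs are not read by poly(A) libraries. The host transcript of Mir206, listed as mmu-mir-133b, ranged from 59 to 608 fragments among the DM3 controls and from 14 to 152 among the DM3 knockouts.

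H19 and Igf2 lie side by side and share enhancers. H19 is made from the maternal copy and Igf2, a growth factor, from the paternal copy. H19 is abundant in embryonic muscle, falls in most tissues after birth and carries the hairpin of miR-675. Meg3, Rian and Mirg are maternally expressed RNAs of the Dlk1-Dio3 region, which holds large microRNA clusters, and Dlk1, a membrane protein of the Notch ligand type, is the paternal gene at its edge. Grb10 binds the insulin and IGF receptors and restrains growth signalling. Peg3 and Plagl1 are zinc finger proteins, Mest is a predicted hydrolase and Peg10 is a gene derived from a retrotransposon. RNA levels here are summed over both parental copies, so imprinting itself was not measured.

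The microRNA sequences show what the members carry and what was deleted. By position in RefSeq (GRCm38.p6), H19 holds 1 hairpin, within an exon. Igf2 holds 1, Mest 1, Meg3 1, Rian 3 and Mirg 14. The first line below is miR-206-3p of the deleted family, and the others are examples from hosts described here, with the seed (bases 2 to 8) in capitals.
miR-206-3p: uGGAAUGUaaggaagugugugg
miR-675-5p, in H19: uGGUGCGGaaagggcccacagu
miR-675-3p, in H19: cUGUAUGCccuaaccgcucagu
miR-483-3p, in Igf2: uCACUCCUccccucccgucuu
miR-335-5p, in Mest: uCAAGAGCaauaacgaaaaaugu
miR-770-5p, in Meg3: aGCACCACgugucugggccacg
miR-370-3p, in Rian: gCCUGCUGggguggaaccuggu
miR-410-3p, in Mirg: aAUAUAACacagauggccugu
On GRCm38.p6, miR-206-3p lies at chr1:20679055-20679076 (plus strand) and miR-675-5p at chr7:142577112-142577133 (minus strand). No seed is shared between any of these 8 sequences. The miR-206 seed pairs with ACATTCC, and a site can also end in A (CATTCCA, or ACATTCCA over 8 bases). These overlapping motifs were searched on the sense strand of each longest GENCODE M21 transcript. The transcripts of H19, Meg3, Rian, Dlk1, Peg3, Mest, Plagl1 and Grb10 held none. Of transcripts within 10% of the length of H19, 26.3% held at least 1 site of 7 bases, and the share was 67.2% for Peg3 and 44.4% for Grb10. Peg10 held 1 site in its coding sequence, where 56.5% of transcripts of like length held any. Igf2 held 2 in its 3′ UTR, against 42.7% of transcripts of like length holding any. Mirg held 2, of which 1 had 8 bases, against 37.2% and, for 8 bases, 8.49% of transcripts of like length. A match describes letters and not binding. The sites are shown with their matching letters in capitals.
Peg10, transcript bases 1095 to 1101: ctactccaatgCATTCCAgatgattgccca
Igf2, transcript bases 2314 to 2320: tcttcactggtCATTCCAtcacaaatgtcc
Igf2, transcript bases 2620 to 2626: cgatttgaaccACATTCCccaaaacaaggc
Mirg, transcript bases 2870 to 2876: atcctcatgaaACATTCCgggatctttacc
Mirg, transcript bases 3378 to 3385: cctaggttgggACATTCCActggggacatc

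The 10 genes differed widely in RNA level, and their ranges over the libraries overlapped in part. H19 exceeded every other member in DM3 by more than 2 orders of magnitude. Peg3 and Peg10 lay between 0.318 and 48.2 FPKM. Mest, Grb10 and Plagl1 never reached 0.5 FPKM, with highest values of 0.402, 0.302 and 0.159. Meg3, Rian, Mirg and Dlk1 were at or near 0.

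**Figure D1:**
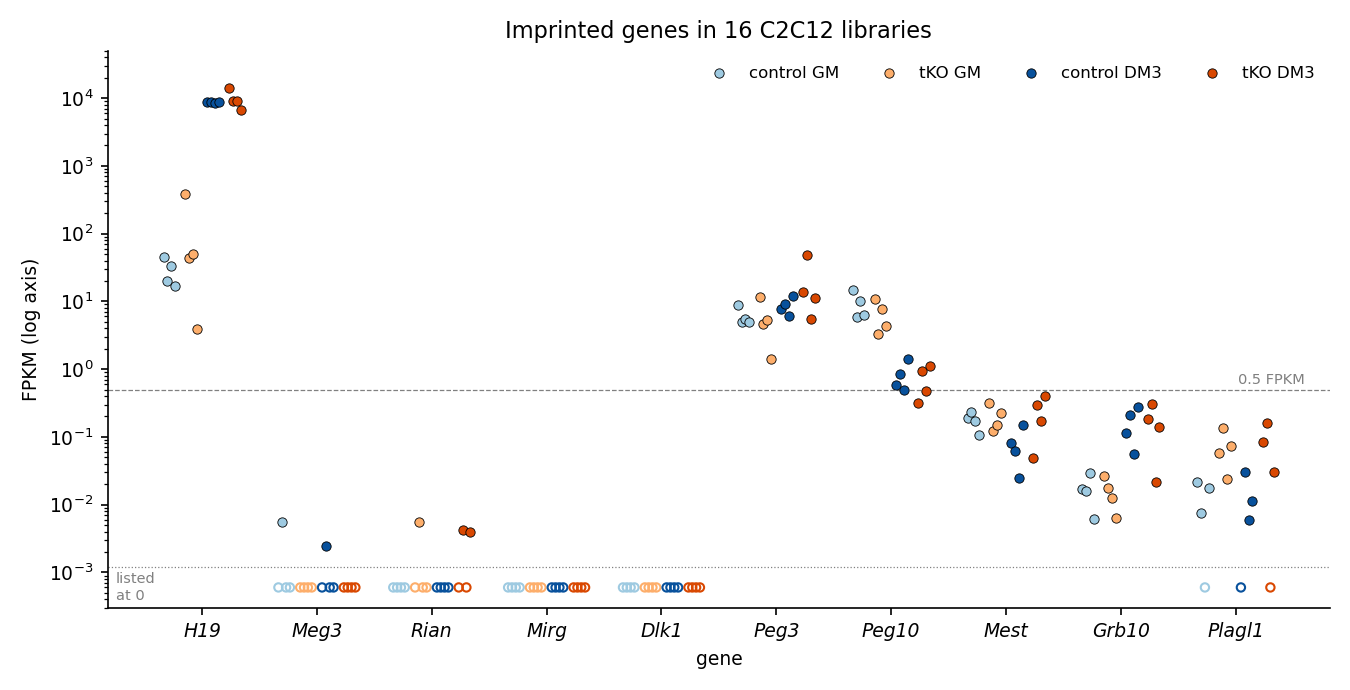
FPKM (log axis) of the 10 genes, 1 point per library coloured by group, with open points for libraries where the gene was listed at 0 and a dashed line at 0.5 FPKM. H19 reaches 14016 FPKM in DM3, while Mirg and Dlk1 are listed at 0 in all 16 libraries.

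H19 (ENSMUSG00000000031) is annotated as a lincRNA of 5 exons on the minus strand of chromosome 7, 142575529 to 142578143 (mm10). It rose from a modest level in GM to among the most abundant RNAs in DM3, in both genotypes. In control GM it stood at 45.3 and 19.9 FPKM in population 1 (cultures 1 and 2) and at 33.4 and 16.7 FPKM in population 2. In control DM3 it stood at 8903 and 8665 FPKM in population 1 and at 8432 and 8820 FPKM in population 2. The lowest DM3 value lay far above the highest GM value, and the 4 control DM3 libraries were close together. Ranked by FPKM, H19 was the first gene of 3 control DM3 libraries and second to mt-Co1, a mitochondrial gene, in the other. It took 1.99% ± 0.0474 (SD, n = 4) of all fragments in control DM3.

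In tKO GM the H19 values were 379 and 43.1 FPKM in clone 1 and 50.6 and 3.90 FPKM in clone 2. In tKO DM3 they were 14016 and 9101 FPKM in clone 1 and 9055 and 6633 FPKM in clone 2. The tKO libraries spread more widely than the controls at both stages, and culture 1 exceeded culture 2 in each clone. The share of fragments in tKO DM3 was 2.22% ± 0.708 (SD, n = 4), with H19 first in 1 library and second to mt-Co1 in the other 3.

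Between stages, mean H19 was 302-fold higher in DM3 than in GM in controls (8705 ± 207 against 28.8 ± 13.2 FPKM, SD, n = 4 each) and 81.4-fold higher in tKO (9701 ± 3099 against 119 ± 174 FPKM). In limma on log2(FPKM + 1), with Benjamini-Hochberg adjustment over 11832 genes, the change was 8.30 in controls (SE 0.82, adjusted p = 4.3e-07). In tKO it was 7.69 (SE 0.82, adjusted p = 8.87e-07). Within culture 1 the changes were 7.76 in controls and 6.33 in tKO, and within culture 2 they were 8.83 and 9.04. The genotype by stage difference was -0.61 (95% interval -3.07 to 1.85, adjusted p = 0.88). The summed muscle markers were higher in every DM3 library than in any GM library and the summed proliferation markers were lower (57.1 to 142 against 406 to 515 FPKM). Their part in the H19 difference was not tested. In bulk RNA, fewer cells of a type and less RNA per cell cannot be told apart.

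Between genotypes, H19 overlapped at both stages. The log2 difference of tKO from control was 0.71 in GM (95% interval -1.03 to 2.46, limma adjusted p = 0.708) and 0.10 in DM3 (-1.64 to 1.85, adjusted p = 0.968). The intervals are wide enough to hold changes of more than 2-fold in either direction. In GM the difference turned on single libraries and on the clone. It was 1.81 within culture 1, where the genotypes did not overlap, and -0.38 within culture 2, where they did. Comparisons within a culture, here and below, set 2 libraries against 2, where lack of overlap arises easily. The share of all genes without overlap was not counted. It was -0.31 without culture 1 of clone 1, and 1.78 without culture 2 of clone 2. Without clone 2 it was 2.23 (limma adjusted p = 0.0379), and without clone 1 it was -0.80. In DM3 it was 0.38 within culture 1, with no overlap, and -0.17 within culture 2, and it was -0.090 without culture 1 of clone 1. Clone 2 stood below clone 1 by -1.78 over both stages (95% interval -3.33 to -0.24, limma adjusted p = 0.168). Without culture 1 of clone 2 in GM that difference was -2.63 (adjusted p = 0.0442). The GM library with 379 FPKM of H19 had 63.0 FPKM of summed muscle markers, inside the range of the control GM libraries, 58.4 to 78.5. The part of differentiation in that H19 value was not tested.

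Igf2, 72622 bases from H19 on the same strand, also rose in every line. In control GM it was 0.121 and 1.66 FPKM in population 1 and 0.170 and 1.67 FPKM in population 2. In control DM3 it was 20.0, 24.2, 15.5 and 20.2 FPKM in the same order. In tKO it went from 0.114, 0.907, 0.0202 and 0.296 FPKM in GM to 22.6, 9.22, 21.8 and 11.9 FPKM in DM3. The stages did not overlap in either genotype, and the lowest GM values rest on as few as 3 fragments. The log2 change was 3.57 in controls (SE 0.33, limma adjusted p = 1.72e-07) and 3.66 in tKO (SE 0.33, adjusted p = 1.15e-07). H19 remained the larger of these neighbours per length in every library.

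The 2 neighbours differed between cultures in opposite ways in GM. Within each of the 4 lines, H19 was higher in culture 1 and Igf2 was higher in culture 2. This is a description of 8 libraries and was not tested. Igf2 did not pass the test between genotypes in GM (-0.43, 95% interval -1.12 to 0.26, limma adjusted p = 0.533) or in DM3 (-0.35, -1.03 to 0.34, adjusted p = 0.643). In GM the tKO cells were below controls within each culture, by -0.10 in culture 1 and by -0.76 in culture 2, without overlap in either. In DM3 the tKO cells were above controls by 0.32 in culture 1 and below them by -1.01 in culture 2, without overlap in either. With 2 libraries on each side, the lack of overlap says little.

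**Figure D2:**
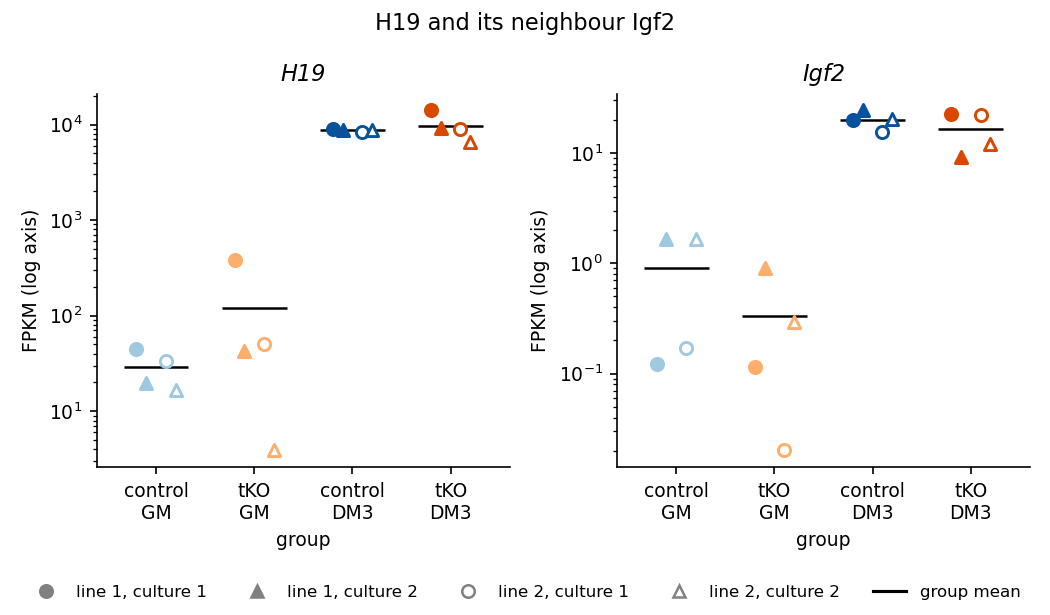
H19 and Igf2 FPKM (log axes) by group, with filled symbols for line 1, open for line 2, circles for culture 1, triangles for culture 2 and a bar at each group mean. Every DM3 value of both genes lies above every GM value, and H19 in tKO GM ranges from 3.90 to 379 FPKM.

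Over the 16 libraries, the tested genes whose log2(FPKM + 1) followed H19 most closely were Pkig (r = 0.986), Igfbp5 (r = 0.982) and Dapk2 (r = 0.982). Pkig is an inhibitor of protein kinase A, Igfbp5 a binding protein for IGFs and Dapk2 a protein kinase. The 16 libraries span both stages, and 76 genes exceeded 0.95. Igfbp5 went from 2.53 ± 1.76 to 321 ± 43.4 FPKM in controls (SD, n = 4 each). With the mean of each group subtracted, the closest were Mms19 (r = 0.920), Pkig (r = 0.913) and Nptxr (r = 0.905), and 0 genes exceeded 0.95. These are the highest of 11832 tested genes, so high values are partly a matter of selection. H19 itself varied most in tKO GM (3.90 to 379 FPKM) and least in control DM3 (8432 to 8903 FPKM). Mms19 acts in iron-sulfur protein assembly and Nptxr is a neuronal pentraxin receptor. Among tKO GM libraries, H19 and Pkig were both highest in culture 1 of clone 1, at 379 and 28.7 FPKM, and lowest in culture 2 of clone 2, at 3.90 and 11.8 FPKM.

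The Dlk1-Dio3 region was nearly silent in poly(A) RNA. Meg3 (chromosome 12, 109541001 to 109571726) had 4 fragments in all, 2 in each of 2 control libraries. Rian (109603940 to 109661716) had 3 fragments, 1 in each of 3 tKO libraries. Mirg (109729764 to 109749460) and Dlk1 (109452823 to 109463336) had none in any of the 16 libraries. Rtl1, a retrotransposon-derived gene of the region, had 2 fragments, and Dio3, which inactivates thyroid hormone, had 3. Together these 6 genes took 12 of 520768913 fragments, between positions 109452823 and 110281097. A count of 0 allows up to 3 fragments, which corresponds to 0.0114 to 0.0285 FPKM for Dlk1 and 0.0139 to 0.0347 FPKM for Mirg, for counting error only. No difference between groups was detectable for these genes at this depth. The ratios of Rian and Mirg to Meg3 could not be formed.

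Peg10 (chromosome 6, plus strand, 4747306 to 4760517) fell on differentiation in both genotypes. In control GM it was 14.6 and 5.79 FPKM in population 1 and 10.3 and 6.33 FPKM in population 2. In control DM3 it was 0.573, 0.848, 0.499 and 1.43 FPKM in the same order. In tKO it went from 10.8, 3.28, 7.76 and 4.34 FPKM to 0.318, 0.954, 0.482 and 1.12 FPKM. The stages did not overlap. Mean Peg10 was 11.04-fold higher in GM than in DM3 in controls (9.26 ± 4.11 against 0.839 ± 0.424 FPKM, SD, n = 4 each) and 9.11-fold higher in tKO (6.54 ± 3.41 against 0.718 ± 0.379 FPKM). The log2 change was -2.42 in controls (SE 0.31, limma adjusted p = 5.35e-06) and -2.05 in tKO (SE 0.31, adjusted p = 2.82e-05).

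Cultures also separated Peg10 at each stage. In GM all 4 libraries of culture 1 were above all 4 of culture 2, and in DM3 all 4 of culture 1 were below all 4 of culture 2. The fall was therefore larger within culture 1 (-3.11 in controls and -2.86 in tKO) than within culture 2 (-1.73 and -1.23), a contrast that was not tested. The labels link cultures across stages only by number, for this and the other genes. Between genotypes Peg10 did not pass the test in GM (-0.47, 95% interval -1.13 to 0.18, limma adjusted p = 0.455) or in DM3 (-0.10, -0.75 to 0.56, adjusted p = 0.911). The GM difference was -0.39 within culture 1, with overlap, and -0.56 within culture 2, without overlap. In DM3 the sign turned without culture 2 of control population 2 (0.045) and without culture 1 of clone 1 (0.020).

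Sgce, which encodes epsilon-sarcoglycan, starts 101 bases from Peg10 on the other strand, and the pair shares an imprinted promoter region. It was named here after its values were seen. Its stage changes of 0.20 in controls (limma adjusted p = 0.23) and 0.24 in tKO (adjusted p = 0.161) did not pass the test, with 10.4 ± 1.30 FPKM in control GM and 12.1 ± 2.11 FPKM in control DM3 (SD, n = 4 each).

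Peg3 (chromosome 7, minus strand, 6703892 to 6730421) gave a rise in tKO that depended on a few libraries. In controls it was 8.83, 4.94, 5.40 and 4.98 FPKM in GM (population 1 cultures 1 and 2, then population 2) and 7.60, 9.24, 6.09 and 12.2 FPKM in DM3. In tKO it was 11.4, 4.64, 5.35 and 1.42 FPKM in GM and 13.98, 48.2, 5.58 and 11.4 FPKM in DM3. The stages overlapped in both genotypes, and culture 2 of clone 1 in DM3 stood far above the rest. The log2 change was 0.47 in controls (95% interval -0.60 to 1.54, limma adjusted p = 0.435) and 1.45 in tKO (0.38 to 2.52, adjusted p = 0.0204).

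In tKO the Peg3 change was 0.16 within culture 1 and 2.74 within culture 2, where the stages did not overlap. In controls it was -0.02 and 0.96. The tKO call was lost without culture 2 of clone 1 in DM3 (0.90, adjusted p = 0.0773), without culture 2 of clone 2 in GM (1.03, adjusted p = 0.0791) and in a fit of the tKO libraries alone (1.45, adjusted p = 0.0683). The change did not differ between genotypes by the interaction test (0.98, 95% interval -0.53 to 2.49, adjusted p = 0.641). Culture 2 of clone 1 in DM3 had 575 FPKM of summed muscle markers, below the control DM3 range of 986 to 1400. Culture 2 of clone 2 had 473 FPKM of them, with Peg3 at 11.4 FPKM, inside the control DM3 range of 6.09 to 12.2. By the mean log2(FPKM + 1) of the same markers, culture 2 of clone 1 stood at 4.02, inside the control DM3 range of 3.84 to 4.40. Culture 2 of clone 2 stood at 3.70, below that range. The part of the markers in the Peg3 values was not tested.

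Peg3 between genotypes differed by -0.26 in GM (95% interval -1.33 to 0.81, limma adjusted p = 0.836) and 0.72 in DM3 (-0.35 to 1.79, adjusted p = 0.509). The GM value was 0.15 when culture 2 of clone 2 was left out and 0.28 without clone 2. In DM3 it was 1.51 without clone 2 (adjusted p = 0.0447) and -0.080 without clone 1. Clone 2 stood below clone 1 by -1.34 over both stages (95% interval -2.27 to -0.42, adjusted p = 0.0883). That difference was -1.77 (adjusted p = 0.0388) without culture 1 of clone 1 in DM3. The 2 control populations differed by -0.13 (-1.06 to 0.79, adjusted p = 1).

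**Figure D3:**
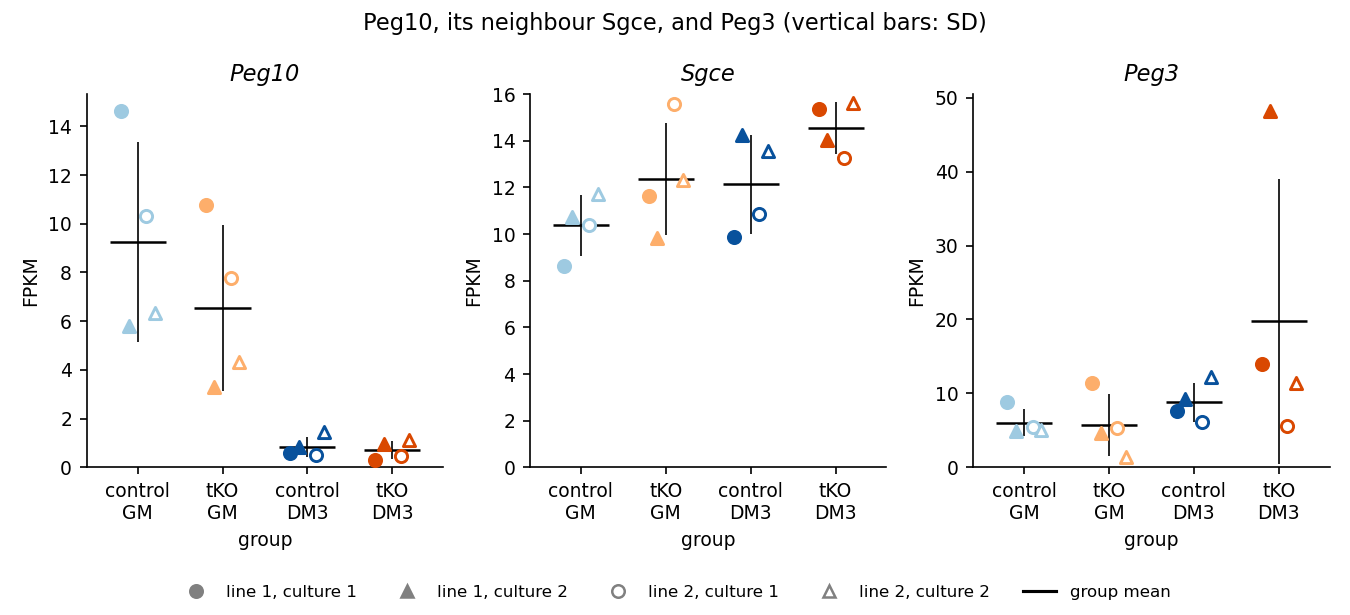
FPKM (linear axes from 0) of Peg10, its neighbour Sgce and Peg3 by group, with filled symbols for line 1, open for line 2, circles for culture 1 and triangles for culture 2. Horizontal bars are means of 4 libraries and vertical bars the SD, and the highest Peg3 value, 48.2 FPKM, is culture 2 of tKO clone 1 in DM3.

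Grb10, Mest and Plagl1 were detected at low levels and did not enter the main test. Grb10 (chromosome 11, minus strand, 11930508 to 12038683) had 258 fragments over the 16 libraries. Its values in control GM were 0.0170, 0.0159, 0.0293 and 0.00607 FPKM, from 1 to 5 fragments each. In control DM3 they were 0.114, 0.213, 0.0559 and 0.274 FPKM, from 9 to 61 fragments. The stages did not overlap in controls. In tKO it went from 0.0267, 0.0175, 0.0126 and 0.00641 FPKM to 0.185, 0.302, 0.0214 and 0.140 FPKM, and culture 1 of clone 2 in DM3 lay within the GM range.

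A test by voom (limma on fragment numbers) over the 18521 genes with at least 10 fragments in all was added after the data were seen. It gave a log2 change of 3.00 for Grb10 in controls (SE 0.78, adjusted p = 0.00391), with 46.3% of all those genes called. In tKO the change was 2.78 (SE 0.82, adjusted p = 0.00977), with 44.5% of genes called. The ratios of mean FPKM were 9.63 and 10.3. Without control population 1 the control change was 2.91 (adjusted p = 0.111), and without clone 1 the tKO change was 2.31 (adjusted p = 0.137). Grb10 did not pass between genotypes in GM (-0.06, 95% interval -2.05 to 1.92, adjusted p = 0.988) or DM3 (-0.28, -1.58 to 1.03, adjusted p = 0.879), where voom called 1.56% and 3.14% of genes.

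Mest (chromosome 6, plus strand, 30723547 to 30748455) had 219 fragments in all, from 2 to 32 in a library. Its means were 0.177 ± 0.0530 FPKM in control GM, 0.204 ± 0.0880 in tKO GM, 0.0798 ± 0.0526 in control DM3 and 0.230 ± 0.154 in tKO DM3 (SD, n = 4 each). The voom difference of tKO from control in DM3 was 1.35 (95% interval 0.02 to 2.68, unadjusted p = 0.0468, adjusted p = 0.3). The change between stages in controls was -1.28 (-2.61 to 0.05, adjusted p = 0.109). Neither passed the threshold.

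Plagl1 (chromosome 10, plus strand, 13090691 to 13131694) had 104 fragments in all and was at 0 in 3 libraries. In GM it had 4, 1, 0 and 3 fragments in controls and 9, 16, 4 and 12 in tKO. The FPKM values, up to 0.0218 in controls and from 0.0242 in tKO, did not overlap. The voom difference in GM was 2.49 (95% interval 0.28 to 4.70, unadjusted p = 0.0295) and did not pass after adjustment (adjusted p = 0.292). In DM3 it had 0, 9, 1 and 2 fragments in controls and 14, 24, 0 and 5 in tKO, with overlap (voom difference 1.80, -0.48 to 4.09, adjusted p = 0.441). At these depths a single fragment moves a value visibly.

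**Figure D4:**
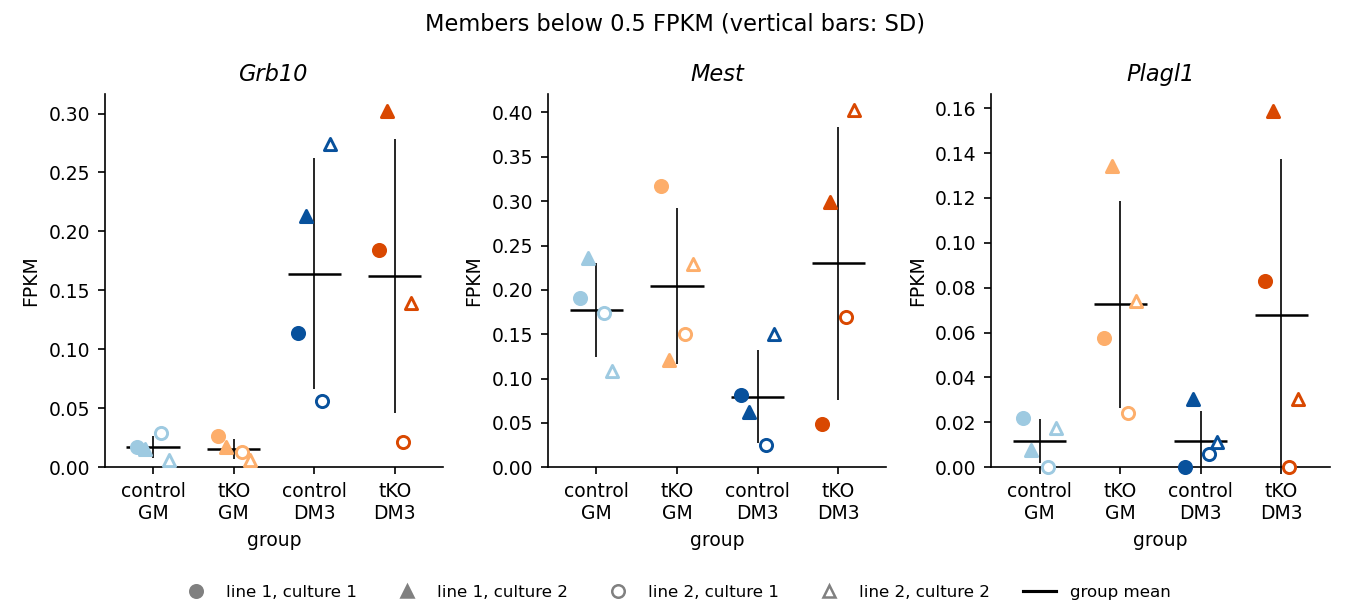
FPKM (linear axes from 0) of Grb10, Mest and Plagl1 by group, with filled symbols for line 1, open for line 2, circles for culture 1 and triangles for culture 2. Horizontal bars are means of 4 libraries and vertical bars the SD, cut at 0, and no value reaches 0.5 FPKM.

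As a count, 0 of the 3 tested members passed between genotypes in GM, where 2.06% of 11832 genes did, and 0 of 3 in DM3, where 3.38% did. None had an unadjusted limma p under 0.05 in either stage. With voom over genes with at least 10 fragments, which reaches 6 members, Plagl1 in GM and Mest in DM3 had an unadjusted p under 0.05 and none passed after adjustment. Between stages, 2 of 3 members passed in controls, where 61.5% of genes did. In tKO 3 of 3 passed, where 60.9% of genes did. These shares leave little to read from the members' counts alone. The interaction called 0 of 3 against 0.254% of genes, and 0 had an unadjusted p under 0.05. Between the tKO clones 0 of 3 passed, against 5.41% of genes, while 2 (H19 and Peg3) had an unadjusted p under 0.05. Between the control populations limma called 0 of 3 members and 0% of genes, with 42 genes and no member at an unadjusted p under 0.05. All genes had a median stage change of -0.15 in controls and -0.12 in tKO, which median-of-ratios scaling moved to 0.01 in both. The stage changes of H19 and Peg10 exceed this shift.

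A list of 62 other genes, drawn up from general knowledge of mouse imprinting, gives the surroundings. Whether each is imprinted in these cells was not measured. The table held 58 of them and 29 were tested. Of the 29 below the filter, 3 were at 0 in every library and 28 never reached 0.5 FPKM. In GM 3 of 29 were lower in tKO and 0 higher (Snrpn, Igf2r and Pon3), against 1.51% of all genes lower. In DM3 3 of 29 were lower and 0 higher (Snrpn, Dcn and Igf2r), against 1.36% of genes lower. Over 25 alternatives, 1 to 5 were lower in either stage. Those that called any gene higher were 1 in GM (Blcap) and 6 in DM3, with at most 2 genes each from Ampd3, Blcap, Inpp5f and Airn. The medians over the 29 were 0.01 and -0.01, beside -0.01 and 0.01 over all genes.

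Snrpn encodes a splicing protein of the imprinted region linked to Prader-Willi syndrome and shares its transcript with Snurf. The values here are of the Snrpn entry alone, so the shared transcript as a whole was not assessed. That entry spans 59974149 to 60140219, against an end at 60005064 in GENCODE M21. Its listed length, 3937 bases, equals that of an M21 transcript of 1 exon. Snrpn was 2.04, 1.36, 2.12 and 1.64 FPKM in control GM, and 0, 0.0449, 0.0243 and 0.0247 FPKM in tKO GM. In DM3 it was 2.83 to 3.50 FPKM in controls and 0.256 to 0.416 FPKM in tKO. Both clones lay far below both populations at each stage, and cloning and knockout cannot be told apart here. The log2 difference was -1.44 in GM (SE 0.11, limma adjusted p = 6.74e-07) and -1.66 in DM3 (SE 0.11, adjusted p = 1.08e-07). This scale understates the change of a gene at so low a level. By mean FPKM Snrpn was 76.2-fold lower in tKO GM, a ratio that rests on 10 fragments in tKO GM with 1 library at 0, and 9.29-fold lower in tKO DM3. Voom over genes with at least 10 fragments gave differences of -6.47 and -3.22 (adjusted p = 1.37e-06 and 4.95e-06).

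Igf2r, a receptor that carries IGF2 to lysosomes, was also lower in tKO at both stages. It was 2.24, 1.78, 2.09 and 1.95 FPKM in control GM and 0.319, 0.383, 0.298 and 0.205 FPKM in tKO GM. In DM3 it was 3.19 to 4.52 FPKM in controls and 0.256 to 1.29 FPKM in tKO. The log2 difference was -1.21 in GM (SE 0.16, limma adjusted p = 0.000353) and -1.54 in DM3 (SE 0.16, adjusted p = 2.11e-05). Without control population 1 the GM call was lost (-1.22, adjusted p = 0.0542). Airn, the antisense RNA whose gene shares 28354 bases with Igf2r, was named after its values were seen. It was 0.432 ± 0.0969 in control and 0.879 ± 0.152 FPKM in tKO GM, and 0.610 ± 0.137 and 1.50 ± 0.942 FPKM in DM3 (SD, n = 4 each). The groups did not overlap, but the differences of 0.39 (limma adjusted p = 0.289) and 0.57 (adjusted p = 0.114) did not pass. In DM3 Airn passed without culture 1 of clone 2 (0.71, adjusted p = 0.0331) and without clone 2 (0.95, adjusted p = 0.00501). Counting is not stated to use strand. In GENCODE M21 the exons of Airn and Igf2r share 0 bases. The deposited interval of Airn is not that of M21 (end at 12860122 against 12860136). The part of counting in the Airn and Igf2r values was not tested.

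The other calls were less firm. Dcn, a matrix proteoglycan, was 30.1 ± 4.24 FPKM in control DM3 and 9.50 ± 4.31 FPKM in tKO DM3 (SD, n = 4 each; -1.65, limma adjusted p = 0.0145), and 7 of 25 alternatives lost the call. Among them were the fits without culture 2 of control population 1 (adjusted p = 0.0521) and without culture 2 of clone 1 (adjusted p = 0.0551). Line averages as units also lost the Dcn call (limma adjusted p = 0.0699). So did the fits without control population 1 (adjusted p = 0.327), control population 2 (0.217) or clone 1 (0.108), while the fit without clone 2 kept it. Pon3, a paraoxonase, was 11.01 ± 1.83 in control GM and 5.62 ± 2.00 FPKM in tKO GM (-0.89, limma adjusted p = 0.0301). Of 25 alternatives, 12 lost the Pon3 call. They included every fit that left out a single library (adjusted p up to 0.124) except those without culture 2 of control population 1 and without culture 1 of clone 2. Line averages lost it (limma adjusted p = 0.0642), as did fits without control population 1 (adjusted p = 0.553), control population 2 (0.346) or clone 1 (0.143). The fit without clone 2 kept it.

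**Figure D5:**
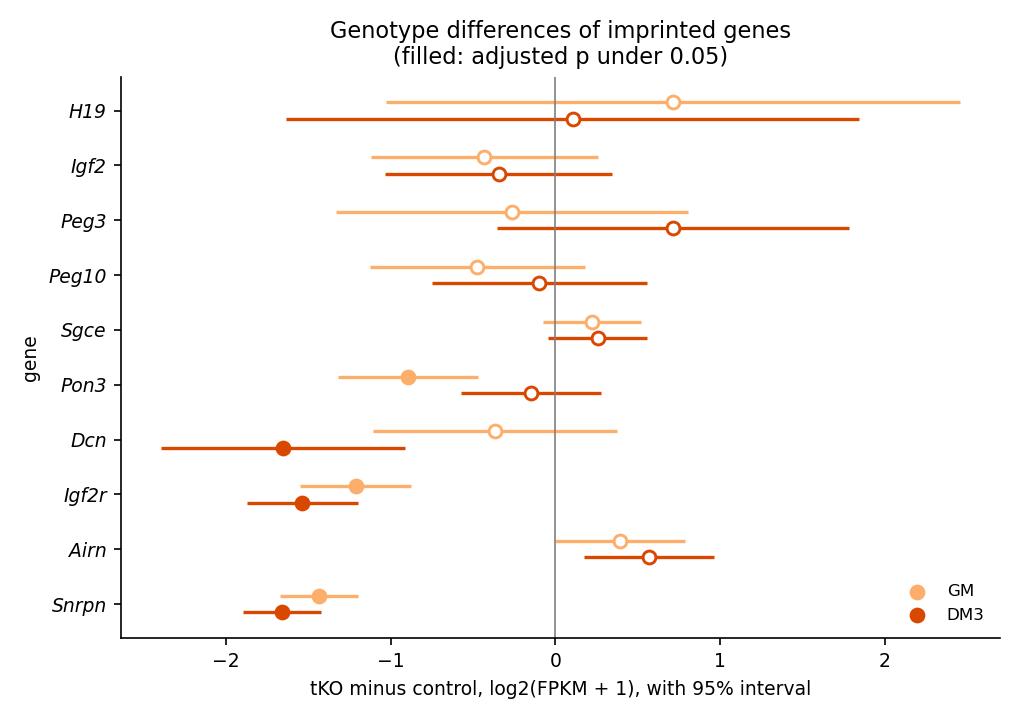
Log2 difference of tKO from control on the log2(FPKM + 1) scale in GM and DM3, with 95% intervals from limma and filled points where the adjusted p was under 0.05. H19, Peg3 and Peg10 have intervals that cross 0 at both stages, and Snrpn and Igf2r lie below 0 at both.

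On differentiation, 10 of the 29 rose and 5 fell in controls, against 23.2% and 38.3% of all genes, with a median of 0.20 beside -0.15 over all genes. In tKO 12 rose and 5 fell, against 24.9% and 36% of genes, with a median of 0.35 beside -0.12. On the log2(FPKM + 1) scale the largest changes besides Igf2 were in Dcn, Cd81 and Tssc4. As a ratio of means, Snrpn was 15.1-fold higher in DM3 in tKO, over the 10 fragments of its GM libraries, and Cobl 5.18-fold higher in controls. Dcn rose by 3.33 in controls (limma adjusted p = 7.62e-07) and 2.04 in tKO (adjusted p = 0.000102). Cd81, a tetraspanin, rose by 1.31 and 1.34, and Tssc4, a spliceosome assembly factor, fell by 1.30 and 1.28 in controls and tKO. The interaction called 0 of 29, with 4 at an unadjusted p under 0.05. Between clones 2 of 29 were lower in clone 2, against 2.25% of genes. They were Cobl, an actin nucleator (-0.81, limma adjusted p = 0.0198), and Atp10a, a lipid flippase (-0.81, adjusted p = 0.0169), named after their values were seen.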

How the data were processed

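Poly(A) RNA from 16 C2C12 libraries was sequenced on an Illumina HiSeq instrument, per the labels. The authors deposited FPKM values with gene lengths and positions. The submitters' processing notes name STAR, DESeq and mm10, without roles. The counting program and its use of strand are not given in the sources used here. Groups came from the sample titles and columns from the sample descriptions.

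FPKM multiplied by gene length and scaled by the depth of the library gave whole fragment numbers for 100% of values, within 0.05 fragment. The test was limma 3.58.1 (R 4.3.3) on log2(FPKM + 1), with trend and robust moderation, over 11832 genes with a mean of at least 0.5 FPKM, and a call was an adjusted p under 0.05. Group means of all 16 libraries shared a single spread, and lines were compared in a model of line by stage. This scale understates changes of low genes. Intervals are at 95%, and floors are 3 fragments, covering counting error only. The procedure was tested on simulated data drawn without line or culture effects, so that test does not cover spread between clones or cultures. Tables used Python 3.11.15 and pandas 2.3.3.

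The members and lists were chosen with earlier results of these data known. Named were the 10 members, Igf2, up to 4 called genes with the largest change per contrast among the other imprinted genes, and the 3 closest to H19 in 2 correlations. Meg3 was not tested, so no genes are given for it. Alternatives covered pseudocount 0.1, no filter, a filter of 5 FPKM, TPM and median-of-ratios scaling, plain moderation, only the compared libraries, a culture block, line averages, line as a random effect, voom, and each library or line left out.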

Additional observations from a re-analysis of the deposited data

Results flagged for a closer look

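Of 68 sets of 4 libraries examined, 3 held a library far from the other 3, and chance gives about 1 in 20 such sets. H19 in tKO GM was 379 FPKM in culture 1 of clone 1, against 3.90 to 50.6 FPKM in the others. Peg3 in control GM was 8.83 FPKM in culture 1 of population 1, against 4.94 to 5.40 FPKM. Snrpn in control DM3 was 2.83 FPKM in culture 2 of population 2, against 3.40 to 3.50 FPKM.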

How the results depend on the processing

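The stage changes of H19, Peg10 and Igf2 kept their direction and passed the threshold under all alternatives that tested them (H19 6.45 to 8.93, Peg10 -3.49 to -1.79, Igf2 3.36 to 6.63, both genotypes). Snrpn stayed lower in tKO and past the threshold wherever it was tested (-6.48 to -1.37), as did Igf2r in DM3 (-2.62 to -1.22). Depth limits Mest, Plagl1, Grb10 and the Dlk1-Dio3 genes. The Rian and Mirg ratios to Meg3 were not run.

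A filter of 5 FPKM, which tests fewer genes, left 1 member called between stages in controls and, of the other imprinted genes, 9 there and 1 between genotypes at each stage. Of those genes, no filter and voom from 10 fragments called 5 in DM3, voom from 10 fragments 5 in GM, voom 1 in the interaction, and fits without control population 1 called 1 in GM. Peg10, Snrpn and Igf2r had means of 4.34, 1.36 and 1.77 FPKM over all libraries. The filter of 5 FPKM therefore left them untested. The genes that no filter added in DM3, and voom from 10 fragments at each stage, were Sfmbt2 and Zim1. The cause of the other changes was not tested. Without clone 1, H19 was -0.80 in GM and -0.17 in DM3, with an interaction of 0.63, Peg3 was -0.080 in DM3, and the interaction called 1 other gene. Without clone 2, 1 member was called between genotypes in GM (H19) and 1 in DM3 (Peg3), 5 others were called in DM3, Peg3 in GM was 0.28 and the Igf2 interaction -0.16. That interaction was -0.078 without control population 2. Peg10 between control populations turned from -0.0077 to 0.037 with pseudocount 0.1, 0.0093 with TPM, 0.024 with voom and 0.023 with voom from 10 fragments. By voom, Plagl1 between stages in controls turned from -0.12 to 0.57 without population 1, and in tKO from -0.81 to 0.39 without clone 2. Mest in tKO turned from -0.12 to 0.51 without clone 1. With no filter on log2(FPKM + 1), Plagl1 in controls was 0.00014 and Mest in tKO 0.025.

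Leaving out single libraries moved the following. Between genotypes in GM, H19 ran from -0.31 to 1.78 and Peg3 from -0.64 to 0.15. In DM3, H19 ran from -0.090 to 0.27 and Peg10 from -0.21 to 0.045, and 2 to 5 other imprinted genes were called. The interaction ran from -1.68 to 0.41 for H19 and from -0.12 to 0.31 for Igf2. Between clones, Peg10 ran from -0.32 to 0.41 and 0 to 1 members were called. Between control populations, H19 ran from -0.47 to 0.11, Peg10 from -0.31 to 0.29 and Peg3 from -0.35 to 0.094. By voom between stages, Plagl1 ran from -0.81 to 0.56 in controls and -1.52 to 0.28 in tKO, and Mest in tKO from -0.50 to 0.50.

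Same-numbered cultures share only a number in the labels. Their deviations from the group means correlated by 0.0955 to 0.452 in GM and -0.224 to 0.558 in DM3, so not every pair exceeded 0.1. Cultures with different numbers correlated by -0.419 to -0.0558 in GM and -0.456 to 0.338 in DM3. Deviations cancel within a group, so these values mirror those of same-numbered cultures and are not separate evidence. The means were 0.250 and -0.249 in GM, and 0.187 and -0.188 in DM3. Between stages, the same line and number correlated by 0.0923 to 0.291 in controls and 0.0771 to 0.323 in tKO. Other numbers gave -0.298 to 0.236 and -0.299 to 0.361. With culture number as a replicate block, overall or within each stage, 5 other imprinted genes were called in DM3 in place of 3 (Ampd3 and Blcap, higher in tKO, were added), no call of a named gene changed, and every other count stayed within 1.5 times.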
